A study of Homo sapiens with 10 samples.

Results

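The genes described here are 40 that encode ribosome assembly and rRNA processing factors, a named list defined by function and drawn up with earlier results of these data known, out of 20033 protein-coding genes on the autosomes and the sex chromosomes. Of these, 19 act mainly on the small (40S) subunit, 19 mainly on the large (60S) subunit, and 2 (LYAR and MYBBP1A) were put on neither side. Binding of the transcription factor MYC was measured by ChIP-seq with a spiked-in reference genome (ChIP-Rx) in U2OS, a human osteosarcoma line. In every group the cells lacked their own MYC gene and carried a doxycycline-inducible, FLAG-tagged MYC, either wild type (WT) or a mutant that the labels call 3A or 7A without naming the residues. Induced cells received 1 µg/mL doxycycline for 24 h, uninduced WT cells received none, and NIH3T3 mouse cells were added at 10% as the reference genome. The 10 libraries are 2 anti-FLAG immunoprecipitates each of induced WT, induced 3A, induced 7A and uninduced WT, and 1 input each of induced and uninduced WT cells. Whether each line was a clone is not given in the sources used here. The measurements come from 3 deposited peak lists, 1 per induced protein, with 4749 peaks for WT, 845 for 3A and 64 for 7A. The uninduced immunoprecipitates, the inputs and the mouse reads were not analysed here. With 1 list per protein there is no spread between replicates and no test between proteins, and depth per library is unknown. A gene was counted as bound when a peak summit lay within 1 kb of either end of its RefSeq span on hg38.

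A ribosome is built in the nucleolus from a long precursor RNA that is folded, modified and cut by a large set of transient factors. The small subunit processome, which holds the U3 snoRNP and the UTP complexes, shapes the 40S precursor, while factors such as the PES1, BOP1 and WDR12 complex mature the 60S precursor. MYC pairs with MAX and binds the E-box CACGTG, and genes of ribosome biogenesis are among its textbook targets.

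Start-proximal sequence is shown first because 18 members had both a canonical E-box and a WT summit at a start, within 50 bp of each other in 16. Sequences are from RefSeq promoter windows of GRCh38.p14, which run from 250 bases before to 50 bases after an annotated start. They are printed 5′ to 3′ on the gene's strand from position -90 to +30 (the start is +1), with CACGTG in capitals. The first 4 are the members with a WT and a 3A summit within 1 kb of an end that had the highest WT fold among those with a window.
GNL3, chr3:52685942-52686061, plus strand: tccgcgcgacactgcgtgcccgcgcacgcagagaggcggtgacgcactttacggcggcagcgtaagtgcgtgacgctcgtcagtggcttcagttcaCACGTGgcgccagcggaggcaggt
PNO1, chr2:68157798-68157917, plus strand: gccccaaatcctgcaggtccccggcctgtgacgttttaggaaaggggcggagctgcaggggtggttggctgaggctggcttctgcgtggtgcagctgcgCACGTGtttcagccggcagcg
MRTO4, chr1:19251715-19251834, plus strand: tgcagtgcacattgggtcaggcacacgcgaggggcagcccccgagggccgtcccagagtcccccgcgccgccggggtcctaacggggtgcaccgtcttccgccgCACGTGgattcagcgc
HEATR1, chr1:236604487-236604606, minus strand: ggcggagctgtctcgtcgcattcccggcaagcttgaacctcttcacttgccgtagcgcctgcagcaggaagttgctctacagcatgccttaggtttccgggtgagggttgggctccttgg
GNL3, PNO1 and MRTO4 have CACGTG just after the start, at +7 to +12, +10 to +15 and +15 to +20, and HEATR1 has none in its window.

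The next 4 are the members with the highest WT fold and no 3A summit, again among those with a window. The E-box of EBNA1BP2 lies further downstream, so its positions 20 to 49 are printed as well.
RRP9, chr3:51941875-51941994, minus strand: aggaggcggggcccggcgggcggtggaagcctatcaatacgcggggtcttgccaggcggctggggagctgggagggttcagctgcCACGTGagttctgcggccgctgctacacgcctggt
UTP4, chr16:69132559-69132678, plus strand: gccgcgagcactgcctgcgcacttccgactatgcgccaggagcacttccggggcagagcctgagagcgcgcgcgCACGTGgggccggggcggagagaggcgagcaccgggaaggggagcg
EBNA1BP2, chr1:43172261-43172380, minus strand: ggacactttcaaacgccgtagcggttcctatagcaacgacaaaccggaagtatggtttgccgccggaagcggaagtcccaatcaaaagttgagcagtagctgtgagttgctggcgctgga
EBNA1BP2, chr1:43172242-43172271, minus strand: ctggcgctggagcgattcggtggCACGTGg
WDR43, chr2:28894577-28894696, plus strand: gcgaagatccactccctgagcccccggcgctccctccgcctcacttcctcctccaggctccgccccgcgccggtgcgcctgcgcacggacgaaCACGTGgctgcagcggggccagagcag
RRP9 has CACGTG across its start (-5 to +1), UTP4 just before it (-16 to -11), WDR43 just after it (+4 to +9) and EBNA1BP2 at +43 to +48. An E-box near the start was thus present in members with and without a 3A peak.

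A further 4 were chosen after their values were seen. PES1 and BYSL have a start inside the RefSeq span where both WT and 3A peaked, and PWP2 and UTP20 have an E-box at the start but no WT summit within 1 kb of either end. BYSL is printed from position 17 to 46.
PES1, chr22:30591881-30592000, minus strand: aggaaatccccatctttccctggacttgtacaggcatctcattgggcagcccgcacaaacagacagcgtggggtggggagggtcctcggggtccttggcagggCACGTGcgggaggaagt
BYSL, chr6:41921515-41921544, plus strand: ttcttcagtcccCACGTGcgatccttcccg
PWP2, chr21:44107309-44107428, plus strand: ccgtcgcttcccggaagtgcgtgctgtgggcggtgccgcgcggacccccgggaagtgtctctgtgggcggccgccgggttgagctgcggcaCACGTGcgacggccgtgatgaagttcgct
UTP20, chr12:101280015-101280134, plus strand: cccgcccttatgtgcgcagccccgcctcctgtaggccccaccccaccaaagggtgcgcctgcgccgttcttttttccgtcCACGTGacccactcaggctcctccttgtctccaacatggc
The E-box lies at +14 to +19 in PES1, +29 to +34 in BYSL, +2 to +7 in PWP2 and -10 to -5 in UTP20.

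A promoter window was found for 33 of the 40 members. RRP12, BOP1, RRS1, RRP1B, URB2, MAK16 and RPF2 had none. CACGTG, which reads the same on both strands, was in a window of 20 of the 33 (60.6%), against 10.9% of 15842 protein-coding genes with a window and 7.26% of all 35116 windows. It was in 20.3% of the 2973 genes that had a WT summit within 1 kb of a start. In 19 of the 33 it lay between -30 and +50, a stretch set after the positions were seen, where 3.01% of protein-coding genes have it. By side, 12 of 18 members of the 40S side and 6 of 13 of the 60S side had a CACGTG. The variants CACGCG and CATGCG, read on both strands, were in 10 of 33 members (30.3%) and in 25.6% of all genes with a window. The looser pattern CANNTG, which includes CACGTG, was in 29 of 33 (87.9%) and in 70.5%. These shares describe letters, and the comparison genes were not matched for activity or CpG content.

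WT summits lay in a narrow band just downstream of the members' starts. Of the 33 members with a window, 27 had a WT summit within 1 kb of a start, against 18.8% of protein-coding genes with a window. The median position was 38 bp downstream of the start (quartiles 27 to 56, range -138 to 83), taking for each gene the start nearest a summit. In 24 of the 27 the summit was 0 to 100 bp downstream, where 20.8% of the 2973 genes with a WT summit near a start had theirs. This band was not among the comparisons planned beforehand. Over all 2973 the median was 12 bp downstream with quartiles from -166 to 146. The 3 exceptions were NOC3L at -138, NOC4L at -105 and LYAR at -63. The medians were 35 bp on the 40S side (n = 13) and 38.5 bp on the 60S side (n = 12). In the 18 members with both a CACGTG and a WT summit at the start, the summit lay a median of 33 bp from the nearest CACGTG. It was within 50 bp in 16 of 18 (88.9%). The exceptions were NOC3L (159.5 bp) and RCL1 (76.5 bp). Among 605 protein-coding genes with a CACGTG in any window and a WT summit near any start, the share was 47.6%. In those genes the E-box and the summit need not be at the same start, and their distance reached 168014 bp. Among 12 other assembly factors, described further on, the share was 75% (9 of 12), with a median distance of 25 bp. Summits close to an E-box were thus not particular to the members. The other 9 members with a WT summit at the start had no CACGTG in a window: NOP16, WDR12, HEATR1, TSR1, NOC4L, PPAN, WDR74, BRIX1 and NIP7.

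**Figure D1:**
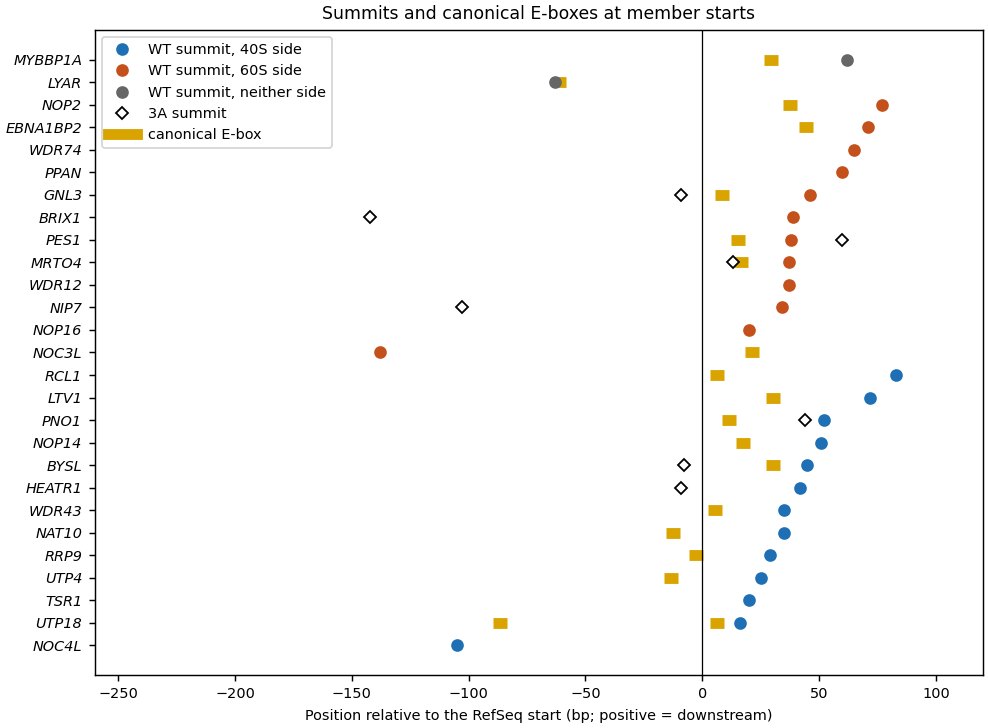
Position of WT summits (filled circles), 3A summits whose peak overlaps the WT peak (open diamonds) and CACGTG E-boxes (yellow bars) relative to the RefSeq start, in bp, for the 27 members with a WT summit within 1 kb of a start. WT summits of 24 members lie 0 to 100 bp downstream, and the 3A summits of BRIX1 (-142) and NIP7 (-103) lie farthest upstream.

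By the 1 kb rule, 31 of the 40 members were bound by WT MYC (77.5%, Wilson 95% interval 62.5 to 87.7%), where 16.7% of all protein-coding genes were bound. The share is that of a list chosen for function, among genes that were not matched for activity, so it is given as a count without a test. Each bound member had 1 such summit. The median of the authors' WT fold enrichment, the pileup at the summit over local background, was 9.09 at bound members and 5.13 at all 3350 bound genes. The median local background was alike, at 14.5 and 14.3, and the median pileup (reads covering the summit, recovered from fold and p) was 116 and 78. Of the 31 members, 28 had a fold above the median of the WT list (5.14), and 16 had a fold of at least 9.08, which 10% of that list's peaks reach. Strand was known for 25 bound members, and the summit was at the start in 24 and at the far end in TBL3.

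On the 40S side 13 of 19 members were bound by WT (68.4%, Wilson 46.01 to 84.6%), with a median fold of 6.95. RRP9, the U3 snoRNP protein, had the highest fold, 14.2, at chr3:51941307-51942561 with the summit 29 bp from the start. It ranked 81 of 4749 in the WT list, with a pileup of 123 over a background of 7.76. The early-binding UTP complex that starts the processome was represented by UTP4 (WT fold 13.3, chr16:69131915-69133115), WDR43 (10.8, chr2:28894261-28895961) and HEATR1 (9.09, chr1:236604105-236604963), while its members UTP15 and WDR75 had no summit within 1 kb. This complex thus held both genes with a strong WT peak and genes with none called within 1 kb. A second complex of WD-repeat proteins held UTP18 (fold 4.98), TBL3 (2.30) and PWP2, which had no WT summit within 1 kb. The TBL3 peak was the weakest of any member: its summit was 898 bp from the far end of the gene and 366 bp from GFER, its -log10 q in the authors' deposited table was 2.54, and the nearest WT summit to the TBL3 start was at -7284 bp.

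PNO1, which helps the final cut of the small subunit rRNA, had a WT fold of 11.6 (chr2:68157297-68158341) and RCL1, a processome protein related to RNA cyclases, one of 9.77 (chr9:4792572-4793470). By the 1 kb rule these completed the 5 highest folds of the 40S side, with RRP9, UTP4 and WDR43. NOP14 (6.95) and NOC4L (6.196), which bind each other in the processome, NAT10 (6.45), an RNA acetyltransferase, and the late factors LTV1 (6.46) and TSR1 (5.31) had intermediate folds.

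On the 60S side 16 of 19 members were bound by WT (84.2%, Wilson 62.4 to 94.5%), with a median fold of 9.02. The intervals of the 2 sides overlap widely, and no test of one side against the other was made. BOP1 led with 13.1 and a peak of 2139 bp, the widest of any member, with the summit 84 bp from one gene end. GNL3, the nucleolar GTPase nucleostemin, had 13.0 (chr3:52685557-52686727). EBNA1BP2 (11.2, chr1:43171681-43172507), RRP1B (11.2, chr21:43659145-43660556) and RRS1 (10.3), which brings in the 5S RNP with RPF2, followed. Those 5 are the highest folds of this side by the 1 kb gene-end rule, which leaves out the PES1 peak (12.2), and RPF2 itself had 8.57.

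BOP1's partner WDR12 had a fold of 6.94, and the third protein of that complex, PES1, had its WT peak at a start inside the RefSeq span. PPAN (10.0) and BRIX1 (6.78), which like RPF2 carry a Brix domain, lay between, as did NOP16 (9.82), MRTO4 (9.47), the rRNA methyltransferase NOP2 (8.13), NIP7 (7.72), NOC3L (7.55), the partner of NOC2L, and URB2 (6.77). MAK16 was lowest at 4.20. The nucleolar proteins MYBBP1A and LYAR, on neither side, had 10.4 and 9.39. Folds below 7 were found at 7 members of the 40S side and 4 of the 60S side.

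**Figure D2:**
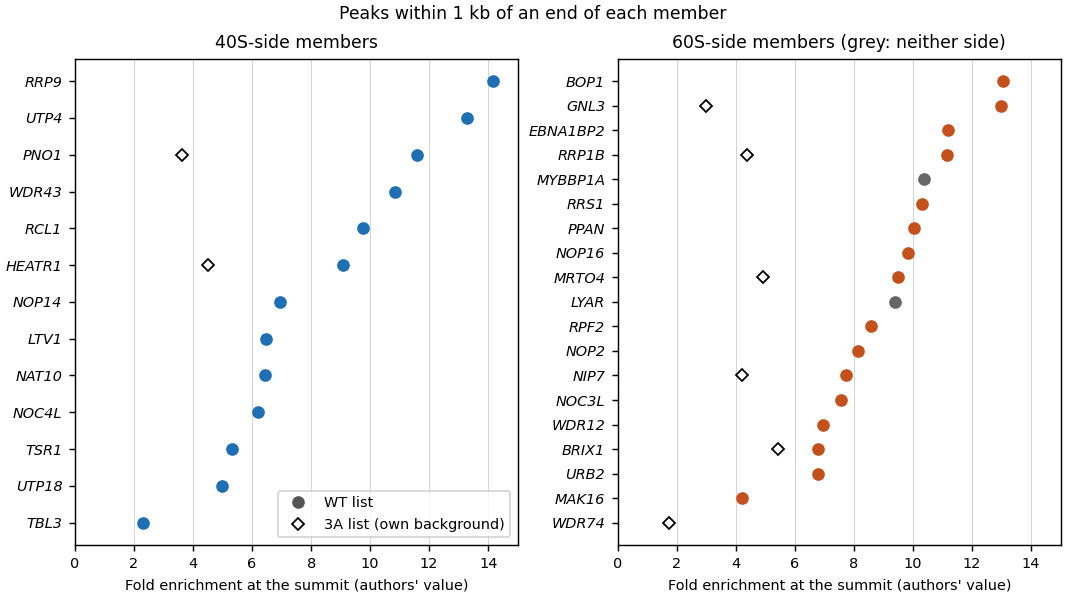
The authors' fold enrichment (x axis) of the peak within 1 kb of an end of each bound member, in the WT list (filled) and in the 3A list (open diamonds), each relative to its own list's background. WT folds run from 2.30 (TBL3) to 14.2 (RRP9), and 8 members have a 3A peak, of which WDR74 has no WT peak within 1 kb of an end.

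The 9 members without a WT summit by this rule fall into 2 kinds. PES1, BYSL and WDR74 had a WT summit 38, 45 and 65 bp downstream of a start that lies inside the RefSeq span, with folds of 12.2, 9.55 and 6.94. BYSL acts in late 40S maturation, and WDR74 in 60S maturation. The other 6 had none near a known end: the nearest WT summits were 2067 bp from NOC2L, 21277 bp from RRP12, 21400 bp from UTP20, 42629 bp from UTP15, 95153 bp from PWP2 and 308910 bp from WDR75. Of those 6, 5 belong to the 40S side and NOC2L to the 60S side. With starts inside spans counted as well, a rule added once the values were known, 34 of 40 members were bound, 14 of 19 on the 40S side and 18 of 19 on the 60S side, where 18.4% of all genes were.

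**Figure D3:**
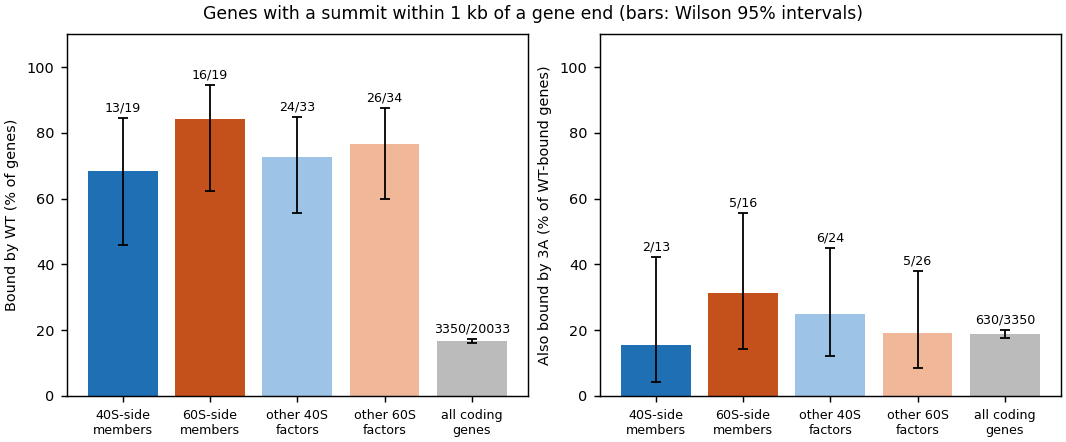
Share of genes (y axis, %) bound by WT (left) and share of WT-bound genes also bound by 3A (right) for 40S-side and 60S-side members, other assembly factors and all protein-coding genes; error bars are Wilson 95% intervals, and counts stand above the bars. WT binding is 13 of 19 and 16 of 19 on the 2 sides, and the intervals of the 2 sides overlap in both panels.

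The 3A mutant bound 8 members by the same rule, and 3.5% of all protein-coding genes. It kept 7 of the 31 genes that WT bound (22.6%, Wilson 11.4 to 39.8%), close to the 18.8% of all WT-bound genes. They were 2 of 13 on the 40S side (HEATR1 and PNO1) and 5 of 16 on the 60S side (RRP1B, GNL3, BRIX1, MRTO4 and NIP7), with Wilson intervals of 4.33 to 42.2% and 14.2 to 55.6%. All 7 3A peaks overlapped the WT peak of the same gene.

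Members kept by 3A were not simply those with the highest WT fold. Their median WT fold was 9.47 (range 6.78 to 13.0) against 8.35 (2.30 to 14.2) for the 24 members that were not kept, so the groups overlapped. RRP9, UTP4 and BOP1, with 3 of the 4 highest WT folds, had no 3A summit within 1 kb, and the nearest were 53914, 170648 and 3304 bp away. The BOP1 span did hold 2 3A summits and 2 WT summits, the WT summit near its end included. BOP1 counted as kept with a window of 5 kb. All WT-bound genes were also ranked by WT fold and split into 4 bins of like size. The highest bin (folds of 6.84 and above) held 22 of the 31 members, and 6 of these 22 had a 3A summit, where 37.6% of its 838 genes had one. In the bin below it was 1 of 6 members (BRIX1), where 15.9% of genes had one. Of the 3 members in the lower 2 bins none had a 3A summit, where 12.1% and 9.67% of genes did. In the highest bin the members' share was thus below that of all its genes, by a difference of few genes that was not tested.

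**Figure D4:**
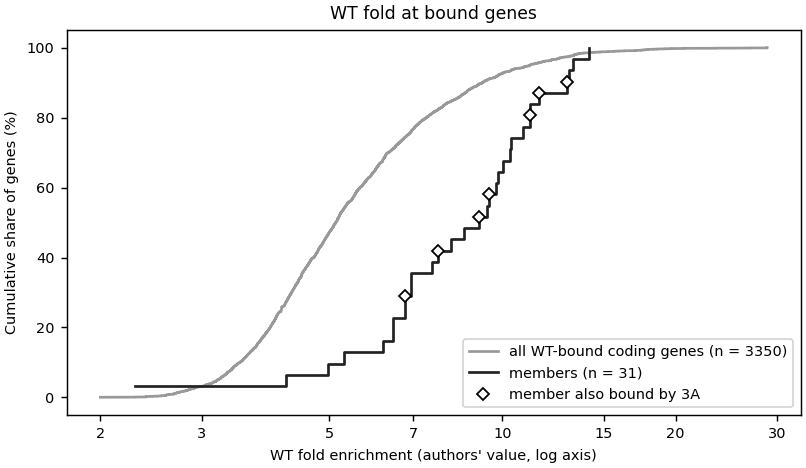
Cumulative share of genes (y axis, %) by WT fold enrichment (x axis, log scale) for the 31 bound members (black) and all 3350 bound protein-coding genes (grey). The members' curve lies to the right, with a median of 9.09 against 5.13, and the 7 members also bound by 3A (diamonds) are spread from 6.78 to 13.0.

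The folds of the kept members stood in a different order in the 2 lists, each fold being relative to its own background. BRIX1, which binds the 60S precursor, had the highest 3A fold of any member, 5.41, and ranked 32 of 845 in the 3A list (pileup 136 over a background of 24.3), while its WT fold was 6.78 (rank 1158 of 4749). MRTO4, related to the ribosomal stalk protein it stands in for, had a 3A fold of 4.91 (pileup 83 over 16.1). HEATR1 had 4.51 (59 over 12.3), RRP1B 4.36 (47 over 10.0) and NIP7 4.20 (55 over 12.3). PNO1 had 3.63 (76 over 20.2). GNL3, with the highest WT fold of the 7, had the lowest 3A fold of the 7, 2.98 (65 over 21.2).

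WDR74 was the eighth member counted for 3A, and its peak differed from the rest. It lay at chr11:62841298-62841695, with the summit 257 bp inside the span and a fold of 1.72, the lowest of the 845 peaks in the 3A list. The pileup there was 269 over a local background of 156, against a median background of 19.7 in the 3A list. The end of RNU2-2, a U2 snRNA gene, is 67 bp from the summit. The WDR74 WT peak was at another place, so the 2 proteins were not found at the same site of this gene.

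PES1 and BYSL, outside the 1 kb rule, also had both proteins at the start inside the span. Their 3A folds were 4.18 and 3.19. Counted together, 9 members had overlapping WT and 3A peaks at a gene end or a known start. They were HEATR1, PNO1 and BYSL on the 40S side, and RRP1B, GNL3, BRIX1, MRTO4, NIP7 and PES1 on the 60S side. Overlap elsewhere in a span, as may occur in BOP1, was not counted.

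Where WT and 3A peaks overlapped at a known start, the 3A summit lay upstream of the WT summit in 7 of 8 members. The distance was 8 bp (PNO1), 24 bp (MRTO4), 51 bp (HEATR1), 53 bp (BYSL), 55 bp (GNL3), 137 bp (NIP7) or 181 bp (BRIX1), whereas in PES1 it lay 22 bp downstream. Among all 548 genes of this kind 52.2% had it upstream, with a median shift of -3 bp, against -52 bp in the members. Among 11 other assembly factors, described further on, it was upstream in 8 (72.7%), with a median shift of -12 bp. With 8 members and 1 list per protein this is a description, and it was not tested. BRIX1 and NIP7, with the largest shifts, have no CACGTG in their window. These summits of 3A were 65 bp and 105 bp from the nearer end of the span of the neighbouring genes RAD1 and COG8, either end being counted. RAD1 and COG8 are on the minus strand, and BRIX1 and NIP7 are on the plus strand. A CACGTG was present in 5 of the 8 members with both proteins at a start and in 13 of the 19 with WT alone. The shares over all genes with both and with WT alone were 21.2% and 20.2%.

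Many WT-bound members had a summit that also lay near another coding gene. Either end of that gene counted, so these are not counts of shared promoters, and TBL3 is included with a summit at its far end. For 20 of the 31 WT-bound members the summit was also within 1 kb of an end of another protein-coding gene, where 33.2% of all WT-bound genes had such a neighbour. Among the 7 members kept by 3A it was 6, HEATR1 being the exception, and among the 24 others 14 (37.5% and 32.2% of all WT-bound genes with and without 3A). The partners of the kept members were DNAAF10 (PNO1), HSF2BP (RRP1B), PBRM1 (GNL3), RAD1 (BRIX1), EMC1 (MRTO4) and COG8 (NIP7). In UTP4 the summit was 86 bp from DERPC and CHTF8, and in BOP1 250 bp from HSF1. Which gene such a peak serves was not tested.

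7A had no summit within 1 kb of any of the 40 members, where 0.125% of protein-coding genes and 0.627% of WT-bound genes had one. The 7A list has 64 peaks, so a count of 0 among 40 genes is close to its background. The nearest 7A summit to any member was 227566 bp from EBNA1BP2, and 5 members are on chromosomes with no 7A peak.

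Another 67 genes of 40S and 60S assembly that are not among the 40 were counted in the same way. WT bound 50 of them (74.6%), 24 of 33 on the 40S side and 26 of 34 on the 60S side, with a median fold of 6.64. 3A bound 11, all of them also bound by WT (22% of the 50), 6 on the 40S side and 5 on the 60S side. The order of the sides in the share kept by 3A was thus the opposite of that in the 40 members. NLE1, a 60S factor, had the highest WT fold, 15.4, and the highest 3A fold, 5.53. NOB1, the nuclease that makes the final cut of the small subunit rRNA with the help of PNO1, had 12.6 in WT and 4.39 in 3A. WDR36, of the complex that holds PWP2 and TBL3, had 11.7 and 4.12, and UTP11 had 11.2 in WT alone. CCDC86 had 10.7 and 4.13, and REXO4 10.2 in WT alone.

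The remaining genes of the 67 with a 3A summit were BMS1, a GTPase that works with RCL1 (WT 5.02, 3A 3.76), ESF1 (8.01 and 3.24), RIOK1, a late 40S kinase (9.28 and 3.51), DNTTIP2 (4.53 and 3.38), MDN1, the large 60S remodelling ATPase (8.26 and 4.22), SDAD1 (7.18 and 4.53) and EIF6, which keeps the subunits apart (4.05 and 2.65). A CACGTG was in a window of 18 of the 62 with one (29.0%). The WT summit lay 0 to 100 bp downstream of the start in 27 of 45 (60%), between the members and all genes.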

How the data were processed

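The authors deposited 1 narrowPeak list per induced protein. Per the submitters' processing notes, MACS2, Picard, SAMtools, Bowtie2 and cutadapt were used, with no version given, and hg38, hg19 and mm10 are listed without saying what each served for. The sources used here do not give how libraries were combined, the control or the use of mouse reads. Each deposited peak has a fold enrichment (ratio to local background), a −log10 p and −log10 q, and a deposited score, not used. The unlabelled summit offset was added to the peak start, and positions were counted from 1. Folds were ranked within a list only, and no scaling by mouse reads was done. Gene spans, starts and sequences came from RefSeq tables of GRCh38.p14, in which all 40 members and 67 other factors were found. At a gene the peak with the highest fold was used.

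Pileup and background were recovered from fold, taken as (pileup + 1)/(background + 1), and a Poisson p, within 0.02 of a pileup step for 31 of 31 WT and 8 of 8 3A peaks of members. Tested on simulated data, 98 of 98 gene-end assignments and 481 of 481 pileups were returned. Intervals are Wilson 95%, treat genes as independent and cover counting error only. Members and lists were chosen with earlier results of these data known, so no set test was made. Named with values were the 5 highest WT folds a side, members with a 3A summit or no WT summit, and, of other factors, the 3 highest a side and all with 3A. Alternatives were windows of 500 bp and 5 kb, −log10 q of at least 5 or 10, any base of the peak, starts only, the nearest gene per summit, peak overlap of 1 bp or 50%, and other E-box letters. Scripts ran in Python 3.11.15 with pandas 2.3.3, matplotlib 3.10.9, scipy 1.17.1 and numpy 2.4.6.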

Additional observations from a re-analysis of the deposited data

How the results depend on the processing

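Of 76 values under the alternatives, 73 stayed within 1.5 times the reported count or, for the median WT fold, within its 95% order-statistic interval (6.94 to 10.3). These include the 7A count, which was 0 at every setting. A like count can also hide a change of members. With starts only, WT bound 27 members in place of 31, but BYSL, PES1 and WDR74 came in. BOP1, MAK16, RPF2, RRP1B, RRS1, URB2 and TBL3 went out, all but TBL3 because they have no promoter window. With each summit given to its nearest gene only, the 60S-side members kept by 3A fell from 5 to 3, since the 3A summits of BRIX1 and RRP1B went to their neighbours. With at least 50% overlap of both peaks required, the kept members fell from 7 to 3. HEATR1, RRP1B, GNL3 and NIP7 dropped out with a 3A peak wholly inside a wider WT peak, of which it covered 38.2% to 47.1%. With CACGCG or CATGCG in place of CACGTG, 10 members had the motif. At a −log10 q of at least 10, GNL3 lost its 3A peak and TBL3 its WT peak. With a window of 5 kb the kept members rose from 7 to 9, as BOP1 and WDR74 were added. With starts inside spans added, chosen after the data were seen, 34 members were bound by WT and 10 by 3A. No paired analysis was possible because each protein has 1 peak list that carries no replicate number. Leaving out a library was not possible for the same reason. Read depth behind the lists is unknown, so a missing WT, 3A or 7A peak is a peak not called, not an absence of binding.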
